A study of Mus musculus with 8 samples.

Results

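The 10 transcription factors described here direct the myeloid lineage: the C/EBP family members *Cebpa*, *Cebpb*, *Cebpd* and *Cebpe*, the ETS factor *Spi1* (PU.1), the interferon regulatory factor *Irf8*, and the zinc finger factors *Gfi1*, *Klf4*, *Egr1* and *Zeb2*. They were chosen by name, 10 of the 23284 gene symbols listed for both cell types, and all 10 were found, *Spi1* under its older symbol *Sfpi1*. RNA-seq had been done on 8 libraries of mouse hematopoietic progenitors of strain B6CBAF1/J from bone marrow, 2 control and 2 *Pcgf1*-KO libraries of each of 2 cell types. IdHPCs are LSK progenitors transduced with Id3 and kept on TSt-4 stromal feeder cells in medium with IL7, SCF and Flt3L, and LMPPs are lymphoid-primed multipotent progenitors, for which the labels give the same culture. Control cells were labelled *Pcgf1* fl/fl and *Pcgf1*-KO cells *Pcgf1* -/-. The KO cells carried ERT2-Cre, with which 4-OHT removes exons 2 to 7 of *Pcgf1*. The *Pcgf1*-KO IdHPCs and both LMPP groups received 4-OHT for 4 days. For the control IdHPCs the treatment is given only in another experiment of the study, where cells of the ERT2-Cre line received ethanol instead. The presence of ERT2-Cre in LMPPs therefore differed between the groups together with the genotype. Its own effect there cannot be told apart from the deletion. If the control IdHPCs received ethanol here too, 4-OHT differed with their genotype, and its own effect cannot be told apart either. The labels give one passage range, 15 to 18, for all libraries, and the study states that its mice were young adult females.

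PCGF1 is a subunit of a variant Polycomb repressive complex 1, which is directed to unmethylated CpG islands and marks histone H2A. In blood formation PU.1 and C/EBPα together open the myeloid program, C/EBPε and GFI1 act in the granulocytic branch, and IRF8, KLF4, EGR1 and ZEB2 act in the monocytic and dendritic branches. C/EBPβ and C/EBPδ also respond to cytokines and stress, and EGR1 is an immediate early gene product that follows growth factor signals.

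*Pcgf1* itself was read first. On its exons 2 to 7 the control IdHPCs had 193 and 173 reads and the *Pcgf1*-KO IdHPCs 15 and 15. In LMPPs the library labelled control 1 had 84 reads there and the one labelled *Pcgf1*-KO 1 had 76, whereas those labelled control 2 and *Pcgf1*-KO 2 had 0 and 0, so that the reads go against the label in labelled control 2 and in labelled *Pcgf1*-KO 1. The LMPP libraries were therefore compared by label, and also as the 2 without reads on these exons against the 2 with them. The latter split coincides with the replicate number, so that a difference between replicate 1 and replicate 2 (cells, culture or preparation) cannot be told apart from it. Distinct exons held 15722759 to 25302206 reads in the IdHPC libraries and 9618849 to 12578784 in the LMPP libraries. *Pcgf1*-KO 2 of the IdHPCs stood apart, where the 3′ exons took 29.8% of the reads against 24.6% to 26.4% in the other 3.

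The genes were placed on the mm9 genome from its GENCODE annotation. *Cebpa* (chromosome 7, 35904312 to 35906945), *Cebpb* (chromosome 2, 167514415 to 167515918) and *Cebpd* (chromosome 16, 15887379 to 15888559) lie on the plus strand and had 1 exon each in the tables. *Cebpe* (chromosome 14, 55329200 to 55331011, minus strand) had 2 exons. *Spi1* (chromosome 2, 90922547 to 90955913, plus strand) had 5, *Irf8* (chromosome 8, 123260258 to 123280594, plus strand) 9 and *Gfi1* (chromosome 5, 108145674 to 108155056, minus strand) 6. *Klf4* (chromosome 4, 55540013 to 55545347, minus strand) had 5, *Egr1* 2 and *Zeb2* (chromosome 2, 44839154 to 44972915, minus strand) 10.

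The 250 bases before the transcription start are shown for *Cebpb*, *Klf4* and *Irf8*, from RefSeq on GRCm38.p6, 5′ to 3′ with each CpG in capitals. Their levels separated the IdHPC libraries by genotype and the LMPP libraries by reads on *Pcgf1* exons 2 to 7, as described further on. So did those of *Egr1* and *Cebpd*, and no factor separated the LMPP libraries by label. *Cebpb*, *Klf4* and *Irf8* are not in the study's lists of genes bound by PCGF1 and RING1B, which hold *Cebpd*, *Gfi1* and *Zeb2*. The CpGs are therefore given as a feature of the sequence alone. RefSeq promoters were matched for 6 of the 10 factors. The *Cebpb* stretch (chr2:167688665-167688914, plus strand) held 41 CpGs, the *Klf4* stretch (chr4:55532476-55532725, minus strand) 32 and the first *Irf8* start (chr8:120736108-120736357, plus strand) 29, against a median of 6 over 32851 promoters.
Cebpb: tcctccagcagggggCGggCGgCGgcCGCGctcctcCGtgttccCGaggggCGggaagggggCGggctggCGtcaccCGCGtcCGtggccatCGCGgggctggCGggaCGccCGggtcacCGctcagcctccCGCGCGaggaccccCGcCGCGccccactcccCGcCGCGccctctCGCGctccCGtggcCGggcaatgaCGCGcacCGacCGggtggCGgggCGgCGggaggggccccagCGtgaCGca
Klf4: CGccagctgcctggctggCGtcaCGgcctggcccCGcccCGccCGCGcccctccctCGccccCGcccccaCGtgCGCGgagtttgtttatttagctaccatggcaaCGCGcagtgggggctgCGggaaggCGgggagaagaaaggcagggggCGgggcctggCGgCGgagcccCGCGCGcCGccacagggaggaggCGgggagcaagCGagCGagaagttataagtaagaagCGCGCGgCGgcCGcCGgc
Irf8: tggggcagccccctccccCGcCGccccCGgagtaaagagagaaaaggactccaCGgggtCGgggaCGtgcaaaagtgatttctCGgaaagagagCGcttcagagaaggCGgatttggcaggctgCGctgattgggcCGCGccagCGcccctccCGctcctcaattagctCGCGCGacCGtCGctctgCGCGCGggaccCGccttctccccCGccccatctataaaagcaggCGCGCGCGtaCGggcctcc
Of all promoters, 98.9% had fewer CpGs than *Cebpb*, 95.4% fewer than *Klf4* and 93.2% fewer than *Irf8*. *Cebpa* held 22 CpGs, the 2 listed starts of *Gfi1* 13 and 9, the 4 starts of *Zeb2* between 6 and 14, and the second start of *Irf8* 8. The letters TTCNNNGAA, the core of the sites of STAT factors (the same on both strands), occurred at 2 places in the first *Irf8* stretch. They also occurred at 1 site of *Zeb2*, which lies in 2 overlapping stretches, 147 and 173 bases before their listed starts. Of all promoters, 7.02% hold them. These are matches of letters and no measure of binding.

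Levels were compared between the factors as CPM per kb of exon. In control IdHPCs *Spi1* stood highest, at 19.6 ± 4.12 CPM per kb (SD, n = 2), followed by *Cebpb* at 12.9 ± 3.64, *Irf8* at 6.04 ± 0.907, *Klf4* at 5.92 ± 0.379 and *Cebpd* at 5.66 ± 0.549. *Spi1* and *Cebpb* overlapped within 1 SD, as did *Irf8*, *Klf4* and *Cebpd*. Next came *Gfi1* at 1.74 ± 0.30 (SD, n = 2), *Zeb2* at 1.22 ± 0.116, *Cebpa* at 1.12 ± 0.378 and *Egr1* at 0.758 ± 0.275, with *Cebpa* within 1 SD of both its neighbours in that order. *Cebpe* had 0 reads in both controls, where 3 reads, taken as the floor, are worth 0.0919 and 0.086 CPM.

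In *Pcgf1*-KO IdHPCs *Spi1* and *Cebpb* again stood first, at 19.8 ± 1.0 and 18.0 ± 0.118 CPM per kb (SD, n = 2). *Klf4* at 9.05 ± 1.92 and *Cebpd* at 8.26 ± 1.07 followed and overlapped within 1 SD. *Irf8* at 3.06 ± 0.201 stood below both, level with *Egr1* at 3.04 ± 0.578. *Gfi1* at 1.95 ± 0.22, *Cebpa* at 1.74 ± 0.926 and *Zeb2* at 1.31 ± 0.847 overlapped, and *Cebpe* had 2 and 0 reads.

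LMPPs had another order. In libraries labelled control *Cebpa* stood highest, at 65.1 ± 10.6 CPM per kb (SD, n = 2), within 1 SD of *Irf8* at 63.8 ± 19.1, which in turn overlapped *Spi1* at 49.4 ± 8.86. *Cebpb* had 17.9 ± 3.78, *Cebpd* 12.5 ± 2.53, *Zeb2* 5.66 ± 0.294, *Gfi1* 4.14 ± 2.01, *Egr1* 3.0 ± 1.3, *Cebpe* 2.32 ± 0.257 and *Klf4* 0.567 ± 0.323. *Cebpb* and *Cebpd* overlapped within 1 SD, and so did each neighbouring pair from *Zeb2* to *Cebpe*, whereas *Klf4* stood below all others. The 10 factors held the same ranks in the libraries labelled *Pcgf1*-KO. The tables of the 2 cell types were normalized separately, so the values stand side by side without a test: all factors but *Klf4* had the higher mean in the control LMPPs by label, and *Klf4* in the control IdHPCs. Among all 16156 symbols with reads in LMPPs, 96.2% lay below *Cebpa*, and among the 15771 with reads in IdHPCs 38.1% did.

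**Figure D1:**
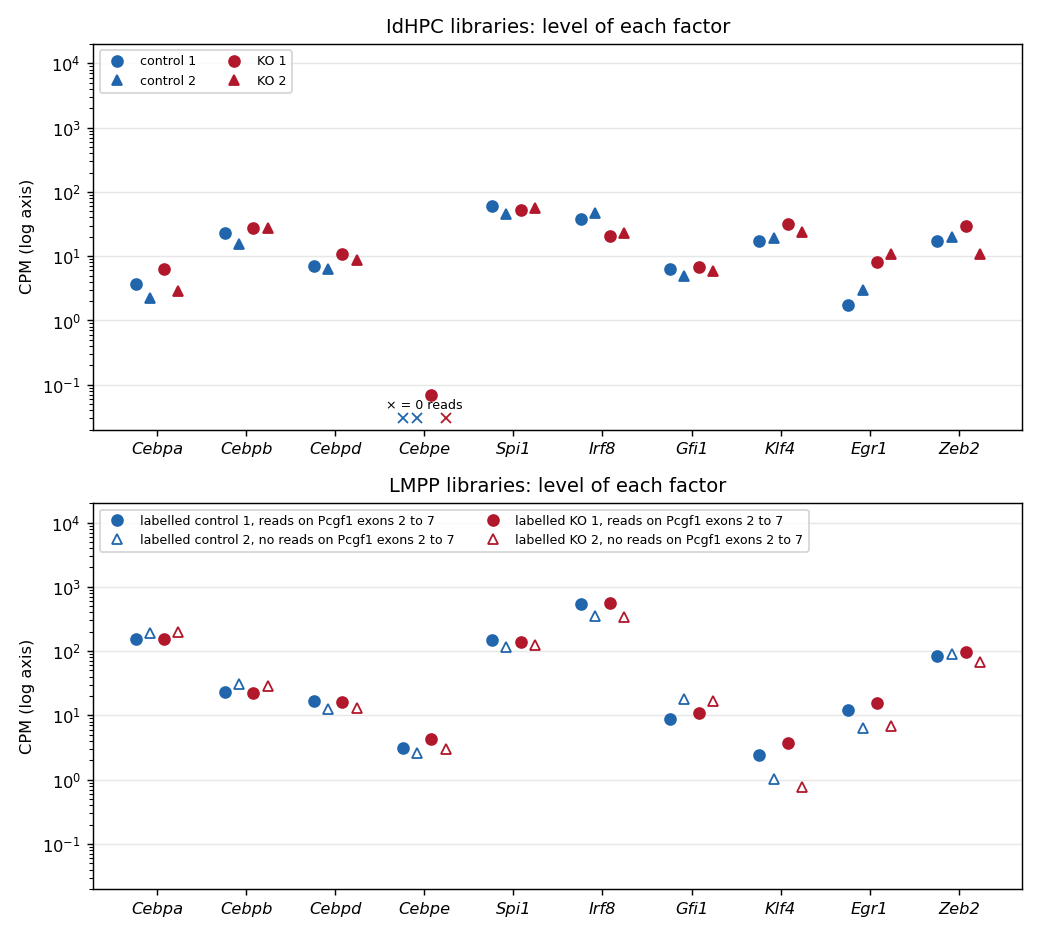
CPM of the 10 factors (log axis) in each of the 4 IdHPC libraries (top) and the 4 LMPP libraries (bottom), blue for control and red for *Pcgf1*-KO labels, circles for replicate 1 and triangles for replicate 2, open symbols for LMPP libraries without reads on *Pcgf1* exons 2 to 7, crosses for 0 reads. *Egr1* and *Irf8* separate the IdHPC genotypes, and *Cebpa* lies between 2.24 and 6.32 CPM in IdHPCs and between 152 and 198 CPM in LMPPs.

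In *Pcgf1*-KO IdHPCs *Irf8* was lower and *Egr1* higher than in control IdHPCs, and *Cebpb*, *Cebpd* and *Klf4* were higher by smaller amounts. None of the 9 factors tested passed an adjusted p of 0.05 by limma, where 0.269% of the 12273 genes tested were called higher and 0.261% lower (Benjamini-Hochberg over all genes). *Egr1* and *Irf8* did pass by edgeR's exactTest on the recovered reads, which called 3.67% of the genes higher and 1.3% lower, and 3 of the factors had an unadjusted p under 0.05 by limma (9.17% of all genes higher and 5.33% lower). Both *Pcgf1*-KO libraries lay above both controls for 4 of the 9 (25.6% of all genes) and below them for 1 (21.3%). The median log2 difference of the 9 was 0.46, that of all genes tested 0.01. Differences are on the log2(CPM + 1) scale, which understates the change of low genes.

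*Irf8*, needed for monocyte and dendritic cell precursors and for holding back granulocytic growth, stood at 38.1 and 47.1 CPM (1244 and 1645 reads) in control and at 20.6 and 22.6 CPM in *Pcgf1*-KO IdHPCs (586 and 480 reads). The groups did not overlap, and the lower level held on all 9 of its exons. In *Pcgf1*-KO 2 the 3′ exon held 51.0% of the *Irf8* reads (95% Wilson interval 46.6% to 55.5%), in the other 3 libraries 35.9% to 41.5%. The ratio of the mean CPM was 0.506 and the log2 difference -0.94 (standard error 0.24, 95% interval -1.47 to -0.41, adjusted p = 0.104 by limma with Benjamini-Hochberg adjustment). The adjusted p was 0.0172 by edgeR's exactTest, and over all alternatives it lay between 0.00991 and 0.953, with the log2 difference between -1.09 and -0.79. The highest p came without control 2.

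*Egr1* stood at 1.75 and 2.95 CPM (57 and 103 reads) in control and at 8.15 and 10.7 CPM in *Pcgf1*-KO IdHPCs (232 and 227 reads). Both of its exons were higher in both *Pcgf1*-KO libraries. The ratio of the means was 4.01 and the log2 difference 1.65 (standard error 0.31, 95% interval 0.97 to 2.33, adjusted p = 0.0514 by limma, 0.000649 by edgeR's exactTest). Its call changed with the setting: it passed 0.05 in 8 of 16 alternatives, over which the adjusted p ranged from 0.000527 to 0.606 and the log2 difference from 0.81 to 2.01. The lowest difference and highest p came without the 3′ exon. The adjusted p by limma was 0.191 without control 1, 0.164 without control 2, 0.022 without *Pcgf1*-KO 1 and 0.0577 without *Pcgf1*-KO 2.

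Of the other 13 immediate early genes, 0 were called by limma (0.269% of all genes higher and 0.261% lower), and 10 were higher and 3 lower by value. Only *Atf3* lay above both controls in both *Pcgf1*-KO libraries (25.6% of all genes). By exactTest 0 were called higher and 1 lower (3.67% and 1.3% of all genes), *Nr4a1*, an orphan nuclear receptor gene named here after its values were seen, which stood at 10.4 and 22.8 CPM in control and at 2.21 and 4.09 CPM in *Pcgf1*-KO IdHPCs (log2 difference -2.03). *Myc*, *Junb*, *Ier2* and *Zfp36*, the most abundant of the list, differed by 0.05, 0.22, 0.52 and -0.21 on the log2 scale. The summed level of the list was 351 and 435 CPM in control and 372 and 482 CPM in *Pcgf1*-KO IdHPCs.

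*Klf4*, which acts in monocyte formation and is also expressed in fibroblasts, stood at 17.3 and 18.9 CPM in control and at 31.8 and 23.5 CPM in *Pcgf1*-KO IdHPCs. Its log2 difference was 0.57 (standard error 0.25, 95% interval 0.0062 to 1.14, adjusted p = 0.34 by limma), and it was 0.36 without *Pcgf1*-KO 1 and 0.78 without *Pcgf1*-KO 2. On 3 of its 5 exons the groups did not overlap, and outside the 3′ exon the levels were 12.2 and 11.9 CPM in control and 22.6 and 12.1 CPM in *Pcgf1*-KO IdHPCs. In *Pcgf1*-KO 2 the 3′ exon held 48.6% of the *Klf4* reads (95% Wilson interval 44.2% to 53.0%), in the other 3 libraries 29.0% to 36.9%.

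Of the C/EBP genes, *Cebpb* stood at 23.3 and 15.6 CPM in control and at 27.2 and 27.0 CPM in *Pcgf1*-KO IdHPCs (log2 difference 0.49, 95% interval -0.10 to 1.07, adjusted p = 0.439 by limma). The difference was 0.76 without control 1 and 0.21 without control 2. *Cebpd* had 7.13 and 6.22 against 10.6 and 8.85 CPM (log2 difference 0.48, 95% interval -0.12 to 1.09, adjusted p = 0.45). For both the groups did not overlap. *Cebpa*, the factor required for the step to granulocyte and macrophage progenitors, overlapped, at 3.64 and 2.24 CPM in control and 6.32 and 2.87 CPM in *Pcgf1*-KO IdHPCs, and its interval ran from -0.35 to 1.27. *Cebpe* was not tested, with 0 and 0 reads in the controls and 2 and 0 in the *Pcgf1*-KO libraries.

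*Spi1*, *Gfi1* and *Zeb2* overlapped between the genotypes. *Spi1* stood at 60.6 and 44.9 CPM in control and at 51.5 and 55.3 CPM in *Pcgf1*-KO IdHPCs, with an interval of -0.49 to 0.55 for the log2 difference. *Gfi1*, a repressor that restrains monocytic genes, had 6.34 and 4.96 against 6.85 and 5.83 CPM (interval -0.48 to 0.77). *Zeb2* had 17.4 and 19.9 CPM in the controls but 29.3 CPM in *Pcgf1*-KO 1 and 10.9 CPM in *Pcgf1*-KO 2, above and below both controls. In *Pcgf1*-KO 2 the 3′ exon held 60.2% of the *Zeb2* reads (95% Wilson interval 53.7% to 66.3%), against 36.1% to 42.2% in the other 3, and the part of the 3′ bias in its low value was not tested. The log2 difference of *Zeb2* was -0.05 (interval -0.90 to 0.80) over all libraries, 0.62 without *Pcgf1*-KO 2 and -0.73 without *Pcgf1*-KO 1, and the ratio of the mean CPM was 1.07.

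**Figure D2:**
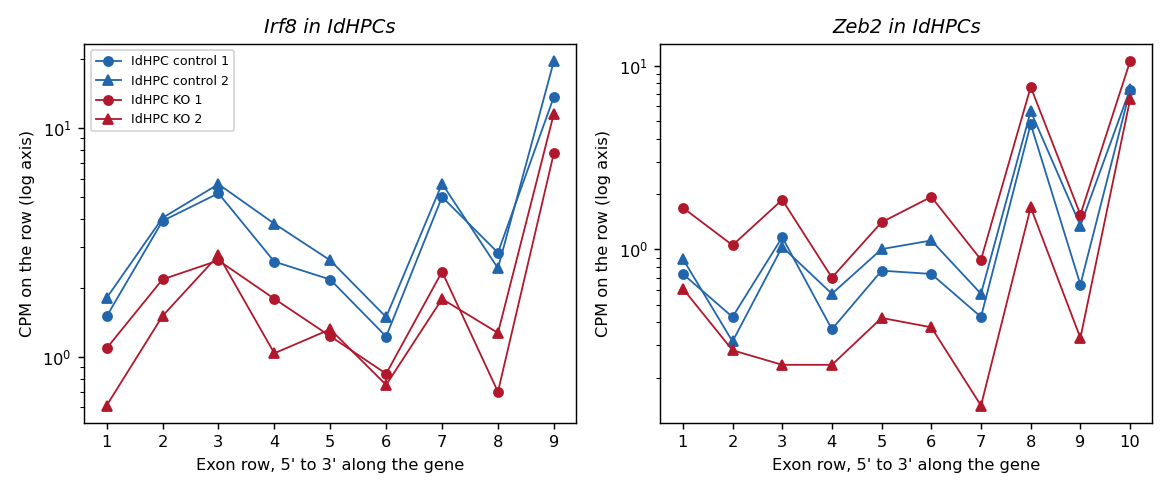
CPM on each exon of *Irf8* (left) and *Zeb2* (right) from the 5′ to the 3′ end (log axis) in the 2 control (blue) and 2 *Pcgf1*-KO (red) IdHPC libraries, circles for replicate 1 and triangles for replicate 2. On all 9 exons of *Irf8* both *Pcgf1*-KO libraries lie below both controls, and on all 10 exons of *Zeb2* *Pcgf1*-KO 2 lies below the other 3 libraries.

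Feeder cell genes moved with the genotype in IdHPCs and are given beside these values, since *Klf4*, *Egr1*, *Cebpb*, *Cebpd* and *Zeb2* are also expressed by fibroblasts. Of 20 stromal markers 18 were tested. By limma 3 were called higher and 0 lower (0.269% and 0.261% of all genes), and by exactTest 9 higher and 0 lower (3.67% and 1.3%). Both *Pcgf1*-KO libraries lay above both controls for 16 of them (25.6% of all genes), with a median log2 difference of 0.98 against 0.01 for all genes. Their summed level was 4070 to 4789 CPM in the controls and 6948 to 9275 CPM in the *Pcgf1*-KO libraries. *Sparc*, *Serpinh1* and *Col1a2*, which encode a matrix protein, a collagen chaperone and a collagen chain, were the 3 that limma called (log2 differences 1.36, 1.35 and 1.27). The largest difference, 1.90, was that of the chemokine gene *Cxcl12*, named after its values were seen, which exactTest called, while *Lum* and *Dcn* had no read. The part of feeder RNA in the values of the 5 factors was not tested. *Spi1* and *Irf8*, whose expression is largely that of blood cells, had log2 differences of 0.03 and -0.94. In bulk RNA, fewer cells expressing a gene and less RNA per cell cannot be told apart.

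**Figure D3:**
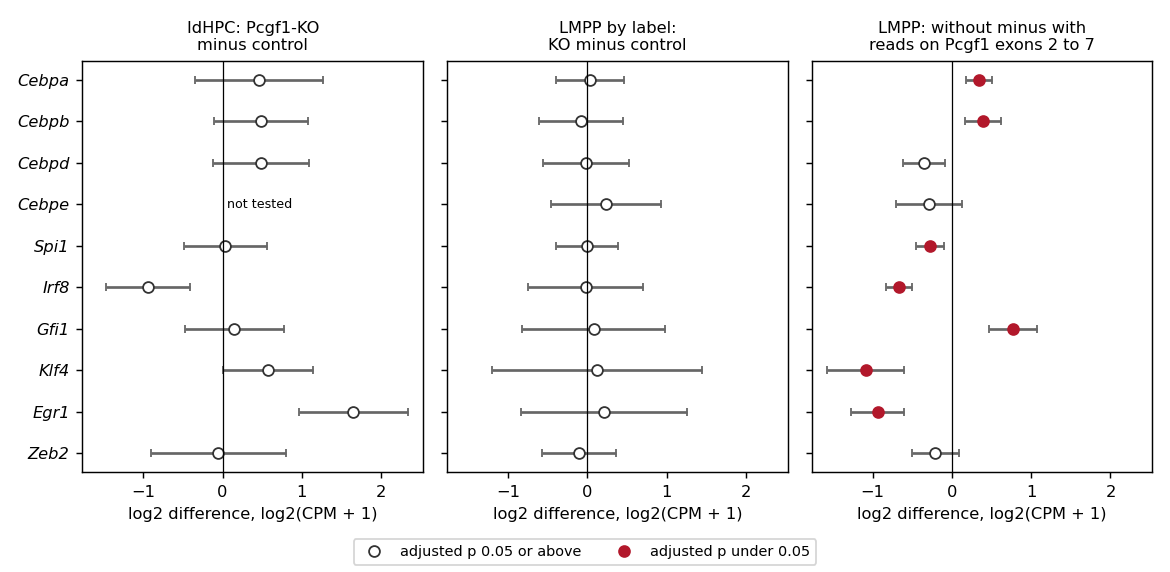
Log2 differences of the 10 factors on the log2(CPM + 1) scale with 95% intervals from limma, for *Pcgf1*-KO minus control IdHPCs (left), LMPPs by label (middle) and LMPP libraries without minus with reads on *Pcgf1* exons 2 to 7 (right); filled points have an adjusted p under 0.05. *Irf8* lies left of 0 in the left and right panels, at -0.94 and -0.67, and *Egr1* lies on opposite sides, at 1.65 and -0.94.

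By label, none of the 10 factors was called in LMPPs, nor was any of the 12153 genes tested (0% called in either direction by limma and by edgeR's exactTest, and 2 genes, or 0.0165%, higher at an unadjusted p under 0.05 by limma). The groups overlapped for all 10 factors, while 5.92% of all genes lay above and 6.3% below without overlap. The log2 differences of the factors lay between -0.11 (*Zeb2*) and 0.24 (*Cebpe*), with a median of 0.02 against -0.00075 for all genes. The intervals were widest for *Klf4* (-1.21 to 1.45) and *Egr1* (-0.84 to 1.26) and reached from -0.74 to 0.70 for *Irf8*, and those of *Cebpa* (-0.39 to 0.47) and *Spi1* (-0.39 to 0.39) were narrower. For all 10 factors but *Zeb2* the libraries with the same replicate number lay next to each other.

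Between the LMPP libraries without and with reads on *Pcgf1* exons 2 to 7, *Irf8*, *Egr1*, *Klf4* and *Spi1* were lower and *Gfi1*, *Cebpb* and *Cebpa* higher where the reads were missing. These were 7 of the 10 factors at an adjusted p under 0.05 by limma, 3 higher and 4 lower, in a comparison that called 10.1% of all genes higher and 7.08% lower. The libraries without reads lay above both others for 3 factors (26.7% of all genes) and below both for 6 (29.9%). The median log2 difference of the 10 was -0.28, that of all genes -0.02. By edgeR's exactTest, which called 12.8% higher and 8.46% lower, 8 passed, *Cebpd* in addition. Without labelled *Pcgf1*-KO 2 the number called by limma was 4 (*Irf8*, *Gfi1*, *Klf4* and *Egr1*), and without each of the other 3 libraries it was 5 or 6, these 4 included.

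*Irf8* had 545 and 557 CPM in the libraries with reads (labelled control 1 and *Pcgf1*-KO 1) and 355 and 338 CPM in those without (labelled control 2 and *Pcgf1*-KO 2). The distance between the pairs exceeded that within them many times over, and all 9 exons were lower. The ratio of the means was 0.629 and the log2 difference -0.67 (standard error 0.07, 95% interval -0.84 to -0.50, adjusted p = 0.000291 by limma). It passed in 16 of 16 alternatives. *Spi1*, its partner on many myeloid enhancers, had 150 and 141 CPM with reads and 116 and 124 CPM without (log2 difference -0.28, standard error 0.08, adjusted p = 0.0425 by limma), and passed in 3 of 16 alternatives, with adjusted p between 0.0387 and 0.30. It did not pass with any 1 of the 4 libraries left out, at adjusted p between 0.0775 and 0.30.

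*Klf4* had 2.43 and 3.71 CPM with reads and 1.04 and 0.757 CPM without, on 33, 54, 18 and 10 reads (log2 difference -1.09, standard error 0.22, adjusted p = 0.00706 by limma). The ratio of the means was 0.292, and the log2 difference was -1.73 by edgeR's exactTest, which has no pseudocount of 1 CPM. *Egr1* had 12.2 and 15.5 CPM with reads and 6.44 and 6.96 CPM without (ratio 0.485, log2 difference -0.94, standard error 0.15, adjusted p = 0.00231 by limma). Both passed in 16 of 16 alternatives. Stromal markers were scarce in LMPPs: *Col3a1*, *Col6a1*, *Postn*, *Lum*, *Dcn* and *Fbln2* had no read, *Col1a1* and *Col1a2* at most 0.412 CPM (6 reads), and the summed level, 66.4 to 71.6 CPM with reads and 85.0 to 102 CPM without, came mostly from *Pdgfrb* and *Thbs1*. *Pdgfrb*, a growth factor receptor gene, was the 1 marker of 6 tested that limma called (log2 difference 0.56, adjusted p = 0.00433 by limma).

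*Gfi1* had 8.85 and 10.8 CPM with reads and 18.1 and 16.8 CPM without, and all 6 of its exons were higher (ratio 1.78, log2 difference 0.77, standard error 0.14, adjusted p = 0.00355 by limma, called in 16 of 16 alternatives). *Cebpa* had 152 and 154 CPM with reads and 191 and 198 CPM without (ratio 1.27, log2 difference 0.34, standard error 0.07, adjusted p = 0.0112). *Cebpb* had 22.9 and 22.0 against 30.9 and 28.7 CPM (ratio 1.33, log2 difference 0.39, standard error 0.10, adjusted p = 0.0282). These calls were less firm. Without labelled control 1 or *Pcgf1*-KO 2 the adjusted p of *Cebpa* was 0.0756 and 0.0691, and without labelled control 2, *Pcgf1*-KO 1 or *Pcgf1*-KO 2 that of *Cebpb* was 0.154, 0.0933 and 0.0598.

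The other 3 factors did not pass. *Cebpd* had 16.9 and 16.2 CPM with reads and 12.7 and 12.9 CPM without (log2 difference -0.35, adjusted p = 0.0734 by limma). *Cebpe* had 3.10 and 4.26 against 2.65 and 2.95 CPM (log2 difference -0.29, adjusted p = 0.346). *Zeb2* had 83.8 and 96.9 CPM with reads, 90.2 CPM in labelled control 2 and 67.2 CPM in labelled *Pcgf1*-KO 2 (log2 difference -0.21, adjusted p = 0.337). It passed only without labelled control 2 (-0.42, adjusted p = 0.0443) and the difference was 0.0014 without labelled *Pcgf1*-KO 2.

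Set side by side, without a test of the difference, *Irf8* was lower and *Cebpb* higher without overlap in both *Pcgf1*-KO IdHPCs and the LMPP libraries without *Pcgf1* exon reads. *Egr1*, *Klf4* and *Cebpd* were higher in the *Pcgf1*-KO IdHPCs and lower in these LMPP libraries. *Gfi1* and *Cebpa* separated the LMPP libraries and overlapped in IdHPCs. Of all genes tested, 25.6% lay above and 21.3% below without overlap in the former, and 26.7% and 29.9% in the latter. The shares of all genes with the same or opposite directions in both were not counted.

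Family members and partners of the factors gave more values. In IdHPCs 25 of 29 were tested, 0 were called higher and 1 lower by limma (0.269% and 0.261% of all genes), with a median log2 difference of -0.10. The one called was *Irf4*, the closest relative of *Irf8*, at 13.8 and 12.3 CPM in control and 3.65 and 3.39 CPM in *Pcgf1*-KO IdHPCs (log2 difference -1.64, adjusted p = 0.0356). In LMPPs by label 0 of 26 were called, and *Myb*, *Ctbp1*, *Ikzf1* and *Cbfb*, the most abundant, differed by -0.07, 0.01, -0.03 and 0.01 on the log2 scale.

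Between LMPP libraries without and with *Pcgf1* exon reads 7 of the 26 partners were called higher and 7 lower by limma, beside 10.1% and 7.08% of all genes, with a median of 0.09. *Irf4* fell here too, from 5.68 and 6.04 to 1.90 and 1.51 CPM (log2 difference -1.34, adjusted p = 0.000632 by limma). *Spib*, the ETS factor closest to *Spi1*, fell with a log2 difference of -1.64, the repressor gene *Bach2* with -0.96, *Klf2* with -0.63 and *Jun* with -0.44. The largest rises were those of *Trib2*, which encodes a pseudokinase that promotes loss of C/EBPα protein (log2 difference 1.52, from 1.47 and 1.10 to 5.58 and 5.53 CPM), and *Ddit3*, the stress-induced C/EBP relative CHOP (1.5). *Nab2*, a corepressor of EGR proteins, rose by 0.78 on the log2 scale, and *Gata2* and *Gfi1b*, factors of early progenitors and of the erythroid and megakaryocytic branch, by 0.69 and 0.64.

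Genes that these factors are known to drive were read as a list of 30 myeloid targets. In IdHPCs they were scarce: 17 lay below 1 CPM in every library, and 8 (*Elane*, *Ms4a3*, *Fcnb*, *Ltf*, *Ngp*, *S100a8*, *S100a9* and *Clec7a*, most of them genes of granulocyte proteins) had no read at all. Of the 13 tested, 0 were called by limma (0.269% of all genes higher and 0.261% lower), 6 were higher and 7 lower by value, and the median log2 difference was -0.05 against 0.01 for all genes. The NADPH oxidase genes *Ncf1* and *Ncf4* and the Fc receptor gene *Fcgr3* were among the most abundant, with log2 differences of -0.68, 0.04 and 0.36. *Ly6c2* and *Lyz2*, named after their values were seen, were the 2 called by exactTest (3.67% of all genes higher and 1.3% lower): *Ly6c2* stood at 23.4 and 15.6 CPM in control and at 8.92 and 5.36 CPM in *Pcgf1*-KO IdHPCs, and *Lyz2* 1.44 and 0.888 against 4.35 and 2.78 CPM.

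In LMPPs 24 of the 30 were tested. By label 0 were called, and *Mpo*, *Ncf1*, *Ctsg* and *Prtn3*, the most abundant, differed by 0.01, 0.02, 0.08 and 0.02 on the log2 scale. By *Pcgf1* exon reads 13 were called lower and 0 higher, with a median of -0.33, where 7.08% of all genes were called lower. *Cybb*, the catalytic subunit of the phagocyte oxidase, had 14.7 and 12.2 CPM with reads and 1.84 and 2.20 CPM without (log2 difference -2.25, adjusted p = 3.59e-05 by limma). *Ly6c2*, *Ms4a3*, *Itgam* and *Clec7a* fell with log2 differences of -1.46, -1.32, -1.28 and -1.18. *Csf1r*, the receptor for macrophage colony-stimulating factor, named after its values were seen, had 114 and 118 CPM with reads and 52.9 and 49.2 CPM without. *Mpo*, the most abundant granule gene, was not called, with 1992 and 1996 CPM with reads and 1874 and 1906 CPM without (log2 difference -0.08).

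By label, 0 genes of the remaining lists were called by limma or exactTest. By *Pcgf1* exon reads, where 10.1% of all genes were called higher and 7.08% lower by limma, genes of other lists were called as well. Of 12 immediate early genes tested 4 were called higher (*Atf3*, *Socs3*, *Ier3* and *Dusp1*, by 1.04, 0.87, 0.68 and 0.66 on the log2 scale) and 2 lower (*Btg2* and *Jun*, at -0.54 and -0.44), beside the lower *Egr1*. Of 8 progenitor markers, all expressed, *Kit* rose by 0.60 on the log2 scale and *Ly6a*, *Dntt* and *Cd48* fell, with log2 differences of -1.83, -0.87 and -0.67. Of 6 erythroid and mast cell markers tested *Pf4* and *Itga2b*, genes of the megakaryocytic branch, rose by 1.21 and 0.54. Of the B lineage markers 1 of 8 was tested, and it was not called. The part of a shift in the makeup of the cells in the values of the factors was not tested. In IdHPCs 0 of 7 progenitor markers tested were called by limma (0.269% of all genes higher and 0.261% lower). The most abundant of them, *Flt3*, *Ptprc*, *Cd34* and *Ly6a*, had log2 differences of -0.22, -0.64, 0.97 and 0.87, and exactTest, which called 3.67% of all genes higher and 1.3% lower, called *Cd34* and *Ly6a* higher. *Ptprc*, which encodes the leukocyte antigen CD45, was at 258 and 327 CPM in control and at 218 and 159 CPM in *Pcgf1*-KO IdHPCs, without overlap (adjusted p = 0.248 by limma), and its part in the values of the factors was not tested. Of the 7 B lineage markers tested there and the 1 erythroid and mast cell marker, 0 were called by either tool.

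**Figure D4:**
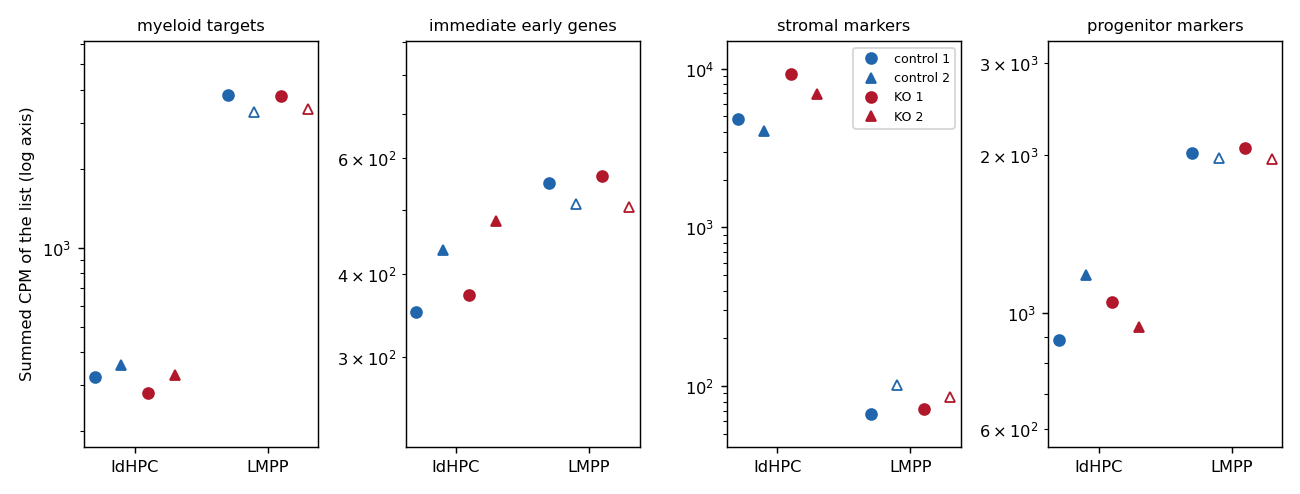
Summed CPM (log axis, a range of its own in each panel) of the myeloid targets, immediate early genes, stromal markers and progenitor markers in each library, blue for control and red for *Pcgf1*-KO labels, circles for replicate 1 and triangles for replicate 2, open symbols for LMPP libraries without reads on *Pcgf1* exons 2 to 7. The stromal sum is 4070 to 4789 CPM in control and 6948 to 9275 CPM in *Pcgf1*-KO IdHPCs, and the myeloid target sum of the LMPPs is 3787 to 3820 CPM with reads and 3288 to 3386 CPM without.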

How the data were processed

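RNA-seq of 8 libraries was analysed from 2 deposited tables, 1 for each cell type. The authors sequenced poly(A) RNA, mapped it to mm9, counted with Rsubread and used edgeR to scale each library to its total (CPM). The methods name HISAT2 and the submitters' processing notes TopHat2 2.0.13. The deposited CPM values stand for exons (284716 rows, 23284 symbols), and the total used includes exons listed for several transcripts. Rows equal to the row before them in all 8 libraries (58624 of 220394 with reads, 26.6%) were dropped and the rest summed per symbol, and the authors' total was kept. All values (100%, within 0.001 of a read) were whole multiples of 1 read, worth 0.0287 to 0.0757 CPM, so whole reads were recovered. If a read that spans exons was counted on each, sums exceed the reads. Intervals on shares cover counting error only. Exon lengths and positions are those of the GENCODE annotation of mm9, promoters those of RefSeq.

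The test was limma 3.58.1 (R 4.3.3) on log2(CPM + 1), eBayes with trend, 2 libraries against 2, each table alone, over genes reaching 1 CPM in any of the 4 libraries, Benjamini-Hochberg adjusted, threshold 0.05. Alternatives were edgeR 4.0.16 (exactTest, quasi-likelihood) and DESeq2 1.42.0 on the recovered reads, a pseudocount of 0.1, other filters and scalings, no trend, other sums of rows, each library left out and the replicate number as a block. Limma, both edgeR tests and DESeq2 were tested on simulated counts with 200 genes changed. In the IdHPC comparison of 12022 genes limma recovered 86 of 100 genes changed by a log2 of 1, with 11 false calls. It recovered all 100 changed by 2. These counts had a fixed dispersion of 0.02, and only genes with a mean of 2 CPM or more were changed. The dispersion was not taken from the real libraries, so the recovery in those is not known. Groups came from the labels, whose replicates the study's methods call independent, and the split of the LMPP libraries from their reads on *Pcgf1* exons. The members, lists and tests were chosen with earlier results of these data known. Besides the 10 factors, genes called by limma were named by size, at most 5 in each direction, or, in lists without a call, the 4 most abundant. Some genes of these lists are not reported here by name.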

Additional observations from a re-analysis of the deposited data

Results flagged for a closer look

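*Egr1*, *Klf4* and *Cebpd* had values in opposite directions in the 2 cell types, without overlap of the libraries in either. Of all genes tested, 25.6% lay above and 21.3% below without overlap in *Pcgf1*-KO IdHPCs. In the LMPP libraries without *Pcgf1* exon reads these shares were 26.7% and 29.9%. The share of all genes that separated in opposite directions was not counted. In *Pcgf1*-KO IdHPCs the log2 differences were 1.65 for *Egr1*, 0.57 for *Klf4* and 0.48 for *Cebpd*, and between the LMPP libraries without and with reads on *Pcgf1* exons 2 to 7 they were -0.94, -1.09 and -0.35. By limma none of the 3 passed in IdHPCs (adjusted p = 0.0514, 0.34 and 0.45), and in the LMPP split *Egr1* and *Klf4* passed (0.00231 and 0.00706) and *Cebpd* did not (0.0734). The difference between the cell types was not tested, because the tables were normalized separately, and the LMPP split cannot be told apart from the replicate number.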

How the results depend on the processing

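Of 141 values of single factors in IdHPCs under alternatives, 118 kept their direction and side of the threshold, 11 passed it in addition and 12 turned sign. By LMPP label these were 139 of 157 with 18 turning sign, and by *Pcgf1* exon reads 132 of 157, with 2 passing in addition, 22 no longer passing and 1 turning sign. In IdHPCs the number of factors called was 0, but 2 by exactTest and by DESeq2, 1 by the quasi-likelihood test, with median ratio or TMM scaling or without the trend, and 0 to 1 with single libraries left out. The number of all genes called there was 65, but 610 by exactTest, 124 by the quasi-likelihood test, 497 by DESeq2, 0 without a filter (limma, 16372 genes tested, 1996 of them at an unadjusted p under 0.05), 3 without the 3′ exon, and 14 to 825 with single libraries left out. Same-numbered replicates deviated together in LMPPs (correlation 0.71) and little in IdHPCs (0.15), and 2 pairs and the labels do not establish a pairing. With the replicate block 2 factors, *Egr1* and *Irf8*, and 669 genes were called in IdHPCs and 3 genes by LMPP label, where the block also takes up the split by *Pcgf1* exon reads. By that split 7 factors were called, but 4 without the 3′ exon, where *Cebpa*, *Cebpb* and *Cebpd* have no other, 4 with the label as a term, and 4 to 6 with single libraries left out. All genes called were 2089, but 1101 without the 3′ exon and 1291 to 1947 with single libraries left out.

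With all libraries kept, signs turned for values near 0. In IdHPCs these were *Zeb2* (0.10 by both edgeR tests, 0.076 by DESeq2), *Spi1* (-0.0015 by DESeq2, -0.029 without the 3′ exon) and *Gfi1* (-0.028 without the 3′ exon), and by LMPP label *Klf4* (-0.085 without the 3′ exon). With single libraries left out, the lone library of a group was assumed to vary like the other group. The sign of *Cebpa* in IdHPCs, whose log2 difference over all libraries was 0.46, also turned there. The IdHPC values then ranged from -0.0020 to 0.92 for *Cebpa*, -0.18 to 0.25 for *Spi1*, -0.0028 to 0.30 for *Gfi1* and -0.73 to 0.62 for *Zeb2*. By LMPP label they ranged from -0.14 to 0.21 for *Cebpa*, -0.29 to 0.13 for *Cebpb*, -0.21 to 0.18 for *Cebpd*, -0.19 to 0.18 for *Spi1*, -0.38 to 0.34 for *Irf8*, -0.40 to 0.56 for *Gfi1*, -0.59 to 0.83 for *Klf4*, -0.31 to 0.74 for *Egr1* and -0.37 to 0.15 for *Zeb2*, and by *Pcgf1* exon reads from -0.42 to 0.0014 for *Zeb2*. Without division by length 4 of the 10 factors kept their rank in control and 2 in *Pcgf1*-KO IdHPCs, and 5 in each LMPP group. The cause of these changes was not tested.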
